A study of Mus musculus with 24 samples.

Results

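The RNA pools of 2 mouse embryonic stem cell clones were compared through the input libraries of a TET2 crosslinking and immunoprecipitation (CLIP) experiment. The 4 input libraries of clones 65 and 75, with 2 libraries per clone, were taken from the 24 libraries of the series by their labels. The series addressed which RNAs the dioxygenase TET2 contacts and how tRNA fragments respond to its loss, and it also holds hydroxymethylcytosine RIP and small RNA libraries that were not used here. The 4 TET2 CLIP libraries of the same clones served as a second set, in which the clone difference was measured apart from the input. Input and CLIP libraries of 1 number may come from 1 culture, so the second set repeats the clones and not necessarily the cultures.

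Both groups were E14 cells, a widely used male mouse embryonic stem cell line, and both carried Tet2 tagged with HA and His (strain label E14; Tet2HA-His). Both were grown on gelatin in serum with leukemia inhibitory factor and 2 kinase inhibitors, 3 µM CHIR99021 against GSK3 and 1 µM PD0325901 against MEK. Both were given 4-thiouridine at 500 µM for 4 hours and UVB at 400 mJ/cm2 before lysis. The groups thus differed by clone alone as far as the labels go. Each group is 1 clone, no untagged parent line was analysed beside them, and library names in the labels begin with different letters for the clones (ND and H), whose meaning is not given, so whatever they mark and the clone cannot be told apart.

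Embryonic stem cells of the mouse keep their identity through a network of transcription factors that includes Oct4 (Pou5f1), Sox2, Nanog, Klf2 and Esrrb. Sister clones of 1 line can drift apart during long culture, at imprinted genes, in chromosome content and in metabolic state. An input library holds total RNA of the lysate without selection for poly(A), so ribosomal, mitochondrial and small structured RNAs are counted beside mRNAs.

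Total counts were 2960450 and 4729463 in the inputs of clone 65 and 913002 and 2277721 in those of clone 75, so clone 75 was the shallower group. Pluripotency factors were well counted in every library, with Pou5f1 at 100.2 and 101.6 CPM in clone 65 and 95.4 and 91.3 CPM in clone 75. CPM here are taken over the counts of the tested features, scaled by TMM factors. Markers of other cell types were low in part. Cdx2 had 0 to 2 counts, Foxa2 0 to 3 and Col3a1 0 to 2 per library. The neural gene Tubb3 had 5 to 56, the endoderm gene Sox17 3 to 34 and the 2-cell gene Zscan4c 9 to 33. Scaled for depth, Zscan4c was at 4.40 and 6.13 CPM in clone 65 and 11.9 and 9.04 CPM in clone 75. Tubb3 (11.3 and 10.4 against 6.63 and 7.13 CPM) and Sox17 (5.02 and 6.31 against 3.98 and 2.85 CPM) went the other way, and none passed the test. Of 9 tested 2-cell markers 8 lay above 0, with a median log2 difference of 0.56 and 1 called higher. The summed level of 18 trophoblast markers was 286 and 223 CPM in clone 65 and 516 and 556 CPM in clone 75, and most of it was Gata3. That of 15 fibroblast markers, most of it the fibronectin gene Fn1, was 1967 and 1853 CPM in clone 65 and 1411 and 1400 CPM in clone 75. Sums of 21 extraembryonic endoderm markers (1395 to 1553 CPM) and 13 neural markers (87.5 to 113 CPM) spanned narrower ranges. The part of these levels in the other results was not tested. Tet2 itself was at 355 and 374 CPM in clone 65 and 355 and 341 CPM in clone 75, and its difference did not pass the test (edgeR adjusted p = 0.66), although both clones carry the tag and this level cannot check it.

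Of 14948 features tested with edgeR's quasi-likelihood test at an adjusted p under 0.05, 1057 (7.07%) were higher and 651 (4.36%) were lower in clone 75. The median size of the called differences was 0.86 on the log2 scale for the higher and 0.65 for the lower features, and 424 and 135 of them exceeded 1. The libraries of the clones did not overlap in 1047 of the higher and 649 of the lower features. The calls were made from the same 4 libraries, so these counts add no separate support. The number of calls depended on the method: DESeq2 called 358 higher (3.38%) and 108 lower (1.02%) of 10601 features with an adjusted p, and edgeR without clone 75 replicate 2 called 453 and 222. Without clone 65 replicate 1 the lower calls were 428. With library size alone as the scale, which moved the median of all features to -0.32, the split was 473 higher and 3302 lower. Directions given below are therefore relative to the bulk of features. In bulk libraries fewer cells of a type and less RNA per cell cannot be told apart. Of 271 called features that belong to a list or to the named genes, 89 kept their call and direction under all 12 alternatives in which they could be tested, among them Mdm2, Btg2, Plk2, Psat1, Aars, Insig1, Srebf2, Lefty1, Lefty2, Klf2, Pfkp, Meg3, Mid1 and mt-Nd1.

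**Figure D1:**
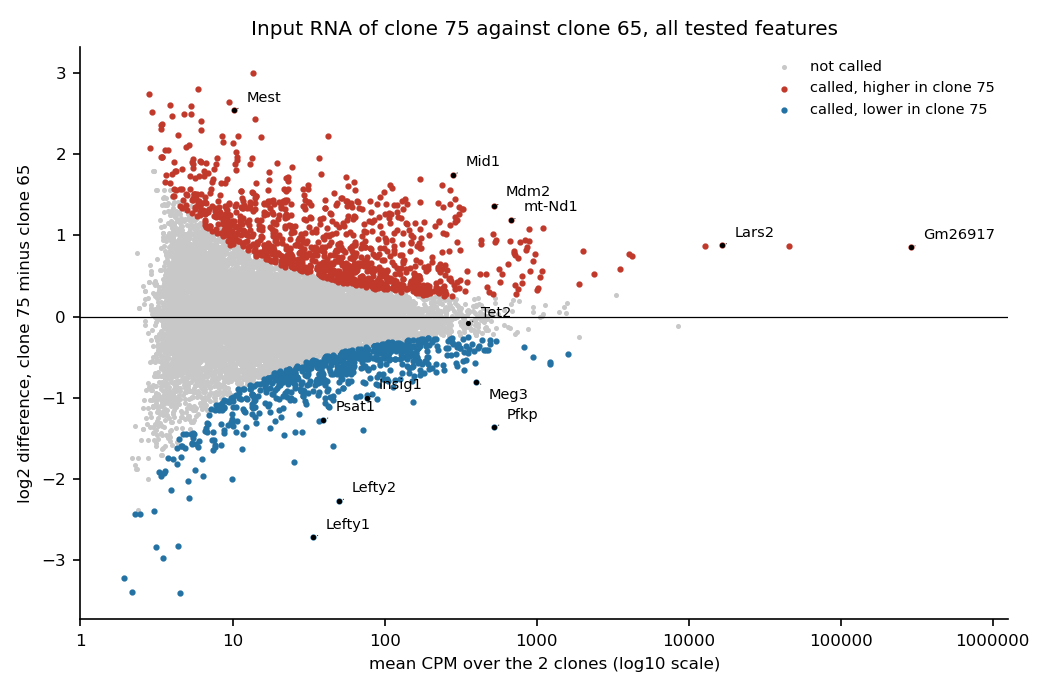
Log2 difference of each tested feature between the input libraries of clone 75 and clone 65 (vertical) against its mean CPM over the clones (horizontal, log scale); red and blue points passed the adjusted p of 0.05. Lefty1 and Lefty2 lie lowest among features above 30 CPM, Mid1, Mdm2 and mt-Nd1 are raised, and Tet2 lies at -0.08.

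Among genes induced by the tumour suppressor p53, 10 of 21 tested were higher in clone 75 and 0 lower. Input counts of this and the lists below are to be read against 7.07% higher and 4.36% lower over all features by edgeR. By DESeq2 the shares were 3.38% and 1.02% of features with an adjusted p. Mdm2, the ubiquitin ligase that p53 induces and that in turn degrades p53 (chromosome 10, 117688875 to 117710758, GRCm38.p6), was at 286 and 300 CPM in clone 65 and at 745 and 755 CPM in clone 75. Both libraries of clone 75 lay far above both of clone 65, a log2 difference of 1.36 ± 0.08 (SE; edgeR adjusted p = 1.17e-20). In TET2 CLIP, Mdm2 was at 347 and 274 CPM in clone 65 and at 893 and 873 CPM in clone 75, a log2 difference of 1.51 (edgeR adjusted p = 0.0091).

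Of 22 listed p53 targets 21 were tested, and the median log2 difference was 0.36, against -0.00 over all tested features. The called members included the antiproliferative gene Btg2, with 71.3 and 70.2 CPM in clone 65 and 126 and 140 CPM in clone 75, the kinase Plk2 (log2 difference 1.05) and the membrane protein gene Perp (1.71). Smaller increases were called for Ccng1 (0.44), Phlda3 (0.55), Polk (0.38), Sesn2 (0.32) and Trp53inp1 (0.47). Of 12 alternatives, 9, 8, 5, 4 and 10 kept these calls, in that order. For Pmaip1, the last of the 10, the libraries overlapped, with 2.83 and 3.53 CPM in clone 65 and 1.33 and 10.9 CPM in clone 75. Its call was kept under 2 of the 8 alternatives in which it could be tested. The cell cycle inhibitor Cdkn1a did not pass (111 and 108 CPM against 98.1 and 111 CPM), and neither did Bax, Zmat3 or Trp53 itself (131 and 131 CPM against 103 and 118 CPM). In TET2 CLIP 14 of 15 tested members lay above 0, with a median of 0.27 and 1 call (0.903% of all features were called higher there). DESeq2 called 5 of the 21 in input, edgeR without clone 75 replicate 2 called 5, and without clone 65 replicate 1 it called 6. With library size alone 4 were called higher and 4 lower, although the list's median stayed 0.35 above that of all features.

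Ptpn14 and Ptprv, a tyrosine phosphatase and a receptor-type phosphatase gene that p53 is known to induce in mouse, were outside the list and were named by their small p. Ptpn14 was at 69.7 and 90.5 CPM in clone 65 and at 260 and 265 CPM in clone 75 (log2 difference 1.69 ± 0.10, SE), and in TET2 CLIP its difference was 2.18 (edgeR adjusted p = 0.0064). Ptprv was at 50.2 and 55.5 CPM in clone 65 and at 168 and 161 CPM in clone 75, a log2 difference of 1.61. The primary transcript region of miR-34a, the best known microRNA target of p53, was also counted higher, at 16.96 and 21.5 CPM against 35.8 and 40.0 CPM (log2 difference 0.97, edgeR adjusted p = 0.000157, a call lost with DESeq2 and without clone 75 replicate 2). In TET2 CLIP the libraries of clone 75 were the lower ones, with 80.5 and 177 CPM in clone 65 and 64.5 and 26.3 CPM in clone 75. The mature forms are given from RefSeq (GRCm38.p6) with their seed, bases 2 to 8, in capitals, because the 5p seed is the part that reads target mRNAs. The libraries count the locus and do not separate mature from precursor RNA.
mmu-miR-34a-5p: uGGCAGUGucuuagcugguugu
mmu-miR-34a-3p: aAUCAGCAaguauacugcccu

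**Figure D2:**
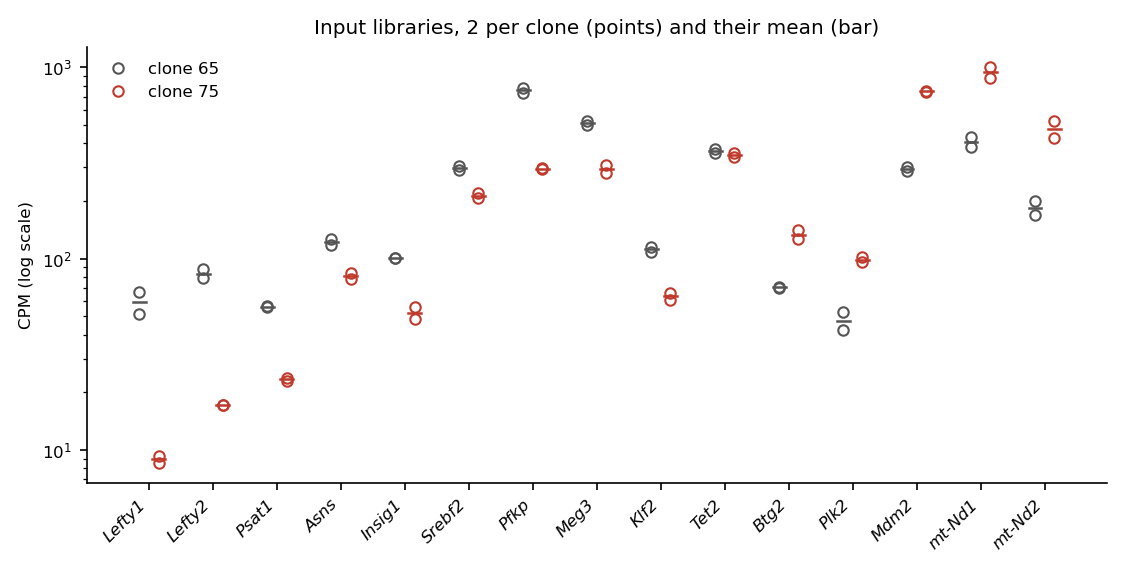
CPM (log scale) of 15 genes in each input library of clone 65 (grey) and clone 75 (red); points are libraries and bars are the mean of the 2. The clones separate at all genes shown except Tet2, and Lefty1 and Lefty2 show the widest gaps.

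Among genes of the integrated stress response 12 of 23 tested were lower in clone 75 and 2 higher. In this response, phosphorylation of eIF2 favours translation of the transcription factor ATF4, which induces genes of amino acid synthesis, amino acid transport and tRNA charging. The median log2 difference of the list, which has 24 genes, was -0.46. Psat1, which makes phosphoserine for serine synthesis, was at 56.2 and 55.5 CPM in clone 65 and at 23.9 and 22.8 CPM in clone 75 (log2 difference -1.27 ± 0.18, SE; edgeR adjusted p = 1.08e-07). Aldh18a1, the first enzyme of proline synthesis, differed by -1.43 on the log2 scale and Pycr1, the last, by -0.90.

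Asparagine synthetase, Asns, was at 117 and 127 CPM in clone 65 and at 78.2 and 83.7 CPM in clone 75. The tRNA synthetase genes Aars (-0.79) and Eprs (-0.42), the mitochondrial folate genes Mthfd2 (-0.89) and Shmt2 (-0.46), the transporter gene Slc7a5 (-0.59) and Atf4 itself (-0.41) were also called lower. Slc1a4, a neutral amino acid transporter outside the list, was named by its small p, with 76.3 and 64.6 CPM in clone 65 and 15.9 and 25.7 CPM in clone 75. The members called higher were Ddit4 (0.84) and Sesn2 (0.32), both inhibitors of mTORC1 signalling, and Sesn2 is also on the p53 list. Wars, Cars, Ddit3 and Trib3 did not pass the test. In TET2 CLIP 6 of 11 tested members lay below 0 with a median of -0.32 and none was called (3.57% of all features were called lower there). DESeq2 called 4 lower in input, and edgeR without clone 75 replicate 2 called 6.

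Promoters were searched after the values were known, for 7 motif strings over 3 lists, of which the matches of 2 are shown. ATF4 acts through a C/EBP-ATF response element, written here as TGATGNAA and searched on both strands in the 250 bases before each RefSeq start (GRCm38.p6). It was present in 9 of 21 listed genes with a promoter entry and in 3.91% of 27025 genes. Among listed genes it was in 5 of 11 called lower and in 3 of 9 tested but not called lower. The stretches around the element in Aars (chr8:111033700-111033767, plus strand) and Asns (chr6:7693210-7693262, minus strand) are shown 5′ to 3′ along the gene with the match in capitals. In Aars the match reads on the reverse strand of the gene.
Aars: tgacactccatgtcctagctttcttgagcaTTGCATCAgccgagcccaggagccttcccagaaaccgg
Asns: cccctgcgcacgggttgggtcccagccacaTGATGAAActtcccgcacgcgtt

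Of 23 cholesterol synthesis genes, all of them tested, 11 were lower in clone 75 and 0 higher. These genes are switched on by the transcription factor SREBP2 (Srebf2) when sterols in the endoplasmic reticulum are low, and Insig1 holds SREBP2 there when sterols are high. Of the list 21 lay below 0, with a median log2 difference of -0.47. Insig1 was at 100.5 and 100.5 CPM in clone 65 and at 55.7 and 48.0 CPM in clone 75 (edgeR adjusted p = 1.8e-08), with no overlap between the clones.

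Srebf2 itself was at 306 and 292 CPM in clone 65 and at 207 and 220 CPM in clone 75, a log2 difference of -0.47 ± 0.09 (SE). Other called members included Cyp51 (-0.64), Tm7sf2 (-0.62), Dhcr7 (-0.57), Msmo1 (-0.51), Hmgcs1 (-0.48), Lbr (-0.46) and Fdps (-0.95), all of which encode proteins of the synthesis pathway. In TET2 CLIP all 13 tested members lay below 0, with a median of -0.51, and none was called. DESeq2 called 3 of the 23 in input, and edgeR without clone 75 replicate 2 called 5.

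A CCAAT box, CCAAT or its reverse complement ATTGG, was found in the same window in 17 of 17 cholesterol genes with an entry, against 37.5% of all genes. The other lists searched also held it often, in 12 of 21 stress response genes and 12 of 18 p53 targets with an entry. CCAAT is bound by NF-Y, which is known to act with SREBP2. The cholesterol genes called lower (8 of 8) and not called lower (9 of 9) held it alike. The full sterol regulatory element was in 0 of the 17 (0.0814% of all genes), and paired p53 core motifs were in 1 of 18 p53 targets with an entry (0.57% of all genes). Insig1 (chr5:28071166-28071230, plus strand) and Srebf2 (chr15:82147104-82147168, plus strand) are shown with the match in capitals.
Insig1: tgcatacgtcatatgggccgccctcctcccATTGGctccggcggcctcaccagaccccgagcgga
Srebf2: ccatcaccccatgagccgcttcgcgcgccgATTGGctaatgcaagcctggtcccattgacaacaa

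The inhibitors of Nodal signalling were far lower in clone 75. Lefty1 and Lefty2 encode secreted antagonists that bind Nodal and its co-receptor, and both are induced by the signal that they block. Lefty1 (chromosome 1, 180935022 to 180938401) was at 67.2 and 51.1 CPM in clone 65 and at 9.28 and 8.56 CPM in clone 75, a log2 difference of -2.72 ± 0.24 (SE; edgeR adjusted p = 2.54e-14). Lefty2 was at 87.9 and 79.1 CPM in clone 65 and at 17.2 and 17.1 CPM in clone 75, a log2 difference of -2.27 ± 0.18 (SE).

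The co-receptor gene Tdgf1 was lower too, at 261 and 278 CPM against 150 and 178 CPM (log2 difference -0.68). Nodal itself was higher, at 206 and 222 CPM against 273 and 274 CPM (0.35, edgeR adjusted p = 0.0028), a call that was lost with DESeq2, library size alone, no count filter, the fit over 8 libraries, and without clone 65 replicate 1 or clone 75 replicate 2. Lefty1 and Lefty2 had too few counts for the test in TET2 CLIP, where Lefty2 was at 49.6 and 97.0 CPM in clone 65 and at 22.3 and 0 CPM in clone 75.

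Of 31 tested naive pluripotency genes 8 were called lower and 0 higher (4.36% and 7.07% of all features), with a median log2 difference of -0.20. Klf2, a transcription factor of the naive state, was at 115 and 108 CPM in clone 65 and at 66.3 and 60.9 CPM in clone 75, a log2 difference of -0.83. Tcl1 (-0.83), Tdgf1, Dppa5a (-0.62), Klf5 (-0.40), Esrrb (-0.34), Nanog (-0.31) and Mybl2 (-0.26) were the other members called. Pou5f1, Sox2, Zfp42, Tfcp2l1 and Klf4 did not pass. Of 12 tested primed and early lineage genes, Lefty1, Lefty2 and Otx2 (-1.72, a call lost without clone 65 replicate 1 or either clone 75 library) were called lower and Nodal higher. DESeq2 called 3 of the pluripotency genes lower and 0 higher, and edgeR without clone 65 replicate 2 called 5 lower and 1 higher.

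Meg3, Rian, Mirg and Rtl1, RNAs of the imprinted Dlk1-Dio3 domain on chromosome 12, were lower in clone 75. Meg3, the maternally expressed long noncoding RNA of the domain, was at 498 and 521 CPM in clone 65 and at 310 and 279 CPM in clone 75, a log2 difference of -0.81 ± 0.09 (SE; edgeR adjusted p = 6.92e-11). Rian, with 205 and 209 CPM against 158 and 111 CPM, and Mirg, with 85.4 and 99.6 CPM against 71.6 and 54.2 CPM, had the same direction, and both calls were lost without clone 75 replicate 2 (Mirg's also with DESeq2). Rtl1 differed by -1.05, but in the RefSeq table its span (109564900 to 109604418) overlaps that of Meg3 (109540996 to 109571729), and the use of strand in counting is not given in the sources used here. In TET2 CLIP the differences were -0.42 for Meg3, -0.62 for Rian, -1.60 for Mirg (edgeR adjusted p = 0.0354) and -0.83 for Rtl1. Of 27 tested imprinted genes 5 were called lower, these 4 and Igf2r (-0.33), and 2 without clone 75 replicate 2. The single one called higher was Mest, a paternally expressed gene of chromosome 6, with 2.198 and 3.34 CPM in clone 65 and 18.6 and 16.6 CPM in clone 75.

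Among hypoxia and glycolysis genes 4 of 23 tested features were lower and 1 higher. Pfkp, the platelet form of phosphofructokinase, was at 784 and 735 CPM in clone 65 and at 294 and 296 CPM in clone 75, a log2 difference of -1.36 ± 0.09 (SE; edgeR adjusted p = 2.62e-19). In TET2 CLIP it was at 644 and 628 CPM against 384 and 246 CPM, a difference of -0.99 (edgeR adjusted p = 0.054). Of 23 tested features of the list, Pfkp, Aldoa (-0.61), Vegfa (-0.99) and Hk1 (-0.56) were called lower and P4ha1 (1.18) higher, with a median of -0.19. Pkm, Ldha, Gapdh and Pgk1 did not pass.

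**Figure D3:**
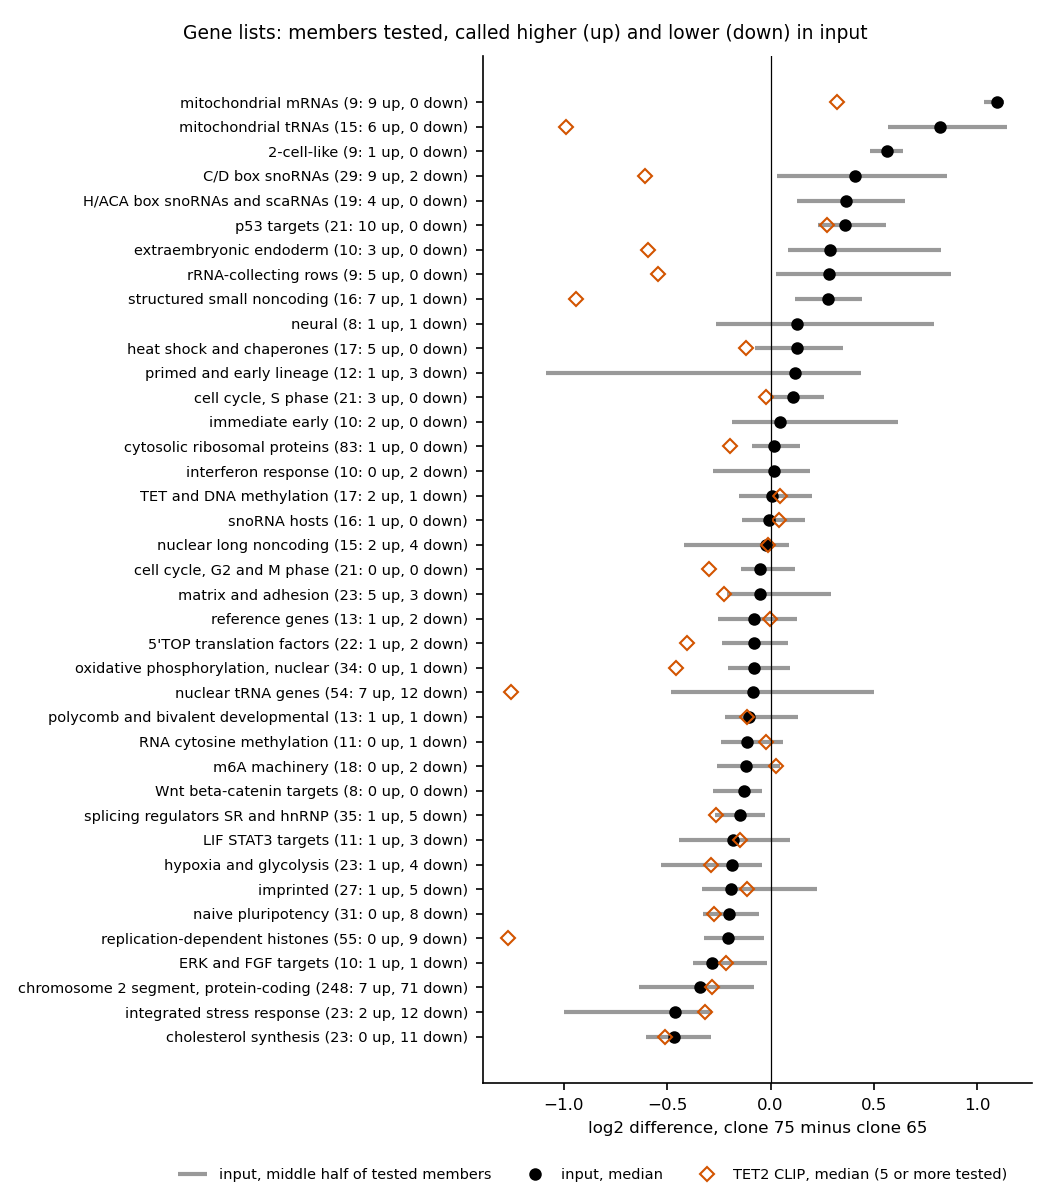
Median log2 difference of clone 75 minus clone 65 for each gene list with at least 8 tested members (black, input; grey bar, middle 50% of members; orange diamond, TET2 CLIP where 5 or more were tested). Cholesterol and stress response genes lie lowest and mitochondrial mRNAs highest in input, while histone and tRNA genes lie lowest in TET2 CLIP.

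A stretch of chromosome 2 was lower in clone 75. Protein-coding genes were grouped in 246 windows of 10 Mb with at least 10 tested genes, and in 8 windows the median log2 difference exceeded 0.25 in size. Among these, 5 were consecutive, from 80 to 130 Mb of chromosome 2 (80000001 to 130000000), with medians of -0.47, -0.51, -0.50, -0.26 and -0.27. The windows, the limit and the stretch were chosen after the values were seen, so the input values are a description. The other 3 windows past the limit lay apart, on chromosomes 4, 10 and 15, with medians of -0.27 to 0.25.

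Within the stretch 71 of 248 tested protein-coding genes were called lower and 7 higher (4.83% and 6.85% of all tested protein-coding genes), with a median of -0.34, while the rest of chromosome 2 had 35 lower and 57 higher of 681 and a median of 0.01. Its genes held 2.25% and 2.28% of all protein-coding counts in clone 65 and 1.80% and 1.79% in clone 75. The share in clone 75 was 0.79 of that in clone 65. In the separate TET2 CLIP libraries 65 of 86 tested genes of the stretch lay below 0, with a median of -0.28, against a median of 0.20 in the rest of chromosome 2. None was called there by edgeR. Next to the stretch, the TET2 CLIP median was 0.03 at 70 to 80 Mb. It was -0.44 at 130 to 140 Mb and -0.23 at 140 to 150 Mb, so the end at 130 Mb was not seen in those libraries.

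Genes of the stretch, chosen after their values were seen, included Tnks1bp1, a tankyrase-binding protein gene, with 109 and 97.1 CPM in clone 65 and 45.1 and 36.1 CPM in clone 75 (log2 difference -1.40). Lgr4, a receptor for R-spondins in Wnt signalling, was at 110 and 105 CPM against 64.9 and 51.4 CPM, and in TET2 CLIP at 124 and 108 CPM against 49.6 and 52.6 CPM. Caprin1, an RNA-binding protein gene, was at 300 and 303 CPM against 188 and 193 CPM, and in TET2 CLIP at 489 and 542 CPM against 231 and 316 CPM. Mtch2 (-0.77), Ssrp1 (-0.84), Tyro3 (-0.66) and Celf1 (-0.58) were lower too, as was the noncoding RNA Platr14 (-1.01). DESeq2 called 18 of the 248 lower and 4 higher, and edgeR without clone 75 replicate 2 called 28 lower and 1 higher, with a median of -0.35. No DNA was measured in these libraries.

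**Figure D4:**
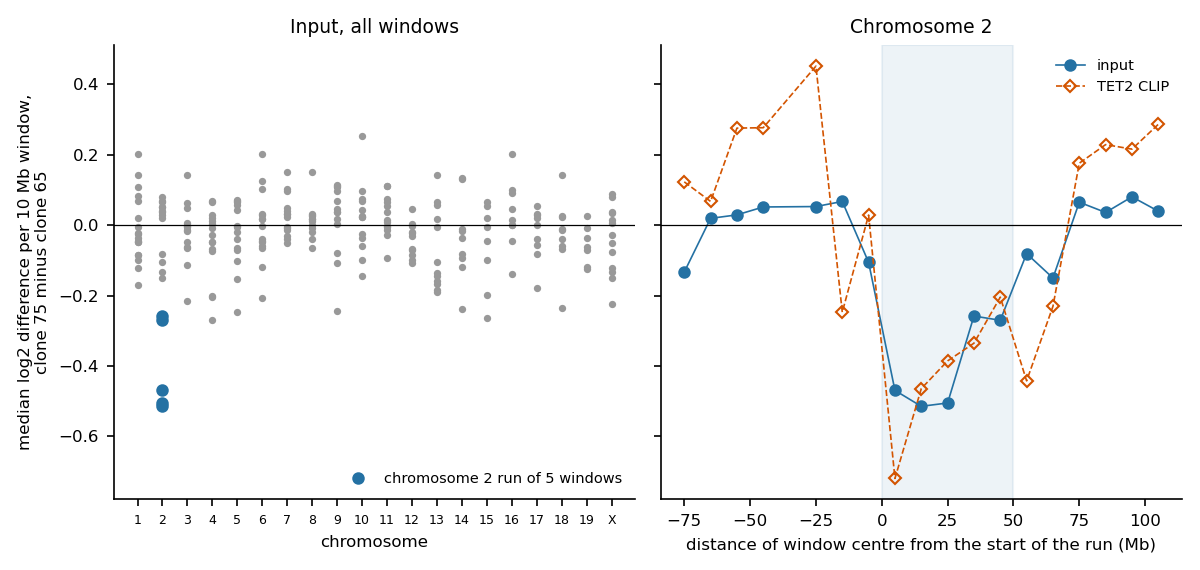
Left, median log2 difference (clone 75 minus clone 65, input) of each 10 Mb window of protein-coding genes by chromosome, with the 5 consecutive chromosome 2 windows in blue. Right, the chromosome 2 windows in order for input (blue) and TET2 CLIP (orange) by distance from the start of the run (shaded); input medians run from -0.51 to -0.26 inside it.

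All 9 tested mitochondrial mRNAs of 13 were higher in clone 75, with a median log2 difference of 1.09, and so were both mitochondrial rRNAs (0.77 and 0.75) and 6 of 15 tested mitochondrial tRNAs (3 without clone 75 replicate 2). mt-Nd1, a subunit of respiratory complex I, was at 384 and 433 CPM in clone 65 and at 1006 and 881 CPM in clone 75, a log2 difference of 1.19 ± 0.09 (SE; edgeR adjusted p = 1.45e-17). mt-Nd2 was at 168 and 201 CPM against 525 and 426 CPM, and mt-Co1, a subunit of complex IV, at 1377 and 1575 CPM against 2773 and 2401 CPM. The 4 mitochondrial mRNAs not tested had 0 counts in every input library, and why was not tested.

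Nuclear genes of oxidative phosphorylation did not follow, with 0 of 34 higher, 1 lower and a median of -0.08. In TET2 CLIP 7 of 8 tested mitochondrial mRNAs lay above 0, with a median of 0.32 and none called. The difference between the CLIP and input contrasts passed the test for 2 of them (263 of 10334 features passed it, 2.54%). The other mitochondrial classes did not repeat the rise there. Of 6 tested mitochondrial tRNAs 5 lay below 0, with a median of -0.99 and 1 called lower. The 2 mitochondrial rRNAs had a median of -0.11, with 1 above and 1 below 0. Mitochondrially encoded RNA made up 1.13% and 1.33% of all counts in clone 65 and 1.73% and 1.73% in clone 75 (exact two-sided permutation p = 0.333, the smallest that 2 against 2 allows).

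Rows that collect ribosomal RNA reads moved in the same direction. They held 27.3% and 23.8% of counts in clone 65 and 38.5% and 34.0% in clone 75, while protein-coding genes held 56.5% and 59.4% against 44.0% and 48.7% (exact two-sided permutation p = 0.333 for both). The most counted row, Gm26917, differed by 0.86 on the log2 scale (a call lost with the stricter filter and without either clone 65 library), Lars2 by 0.88 and Gm42418 by 0.87, and these rows are known to collect reads of ribosomal repeats. In TET2 CLIP the same rows differed by -0.12, 0.00 and -0.39. The part of this shift in the other input results was not tested beyond leaving the rows out, with the mitochondrial rRNAs. That fit gave 1049 higher and 651 lower features. CT010467.1, another row of this kind, was neither in the shares above nor among the rows left out. It held 3.69% and 3.50% of counts in clone 65 and 5.64% and 4.65% in clone 75.

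Among small structured RNAs the clone difference had opposite directions in input and TET2 CLIP. Of 16 tested snRNAs, Y RNAs and related RNAs, 7 were called higher and 1 lower in input with a median log2 difference of 0.28, and in TET2 CLIP all 16 lay below 0 with a median of -0.94. The U5 snRNA gene Rnu5g differed by 0.94 in input and by -1.73 in TET2 CLIP (edgeR adjusted p = 1.8e-06 for the difference between them). Near-identical copies share reads in this class, and with library size alone the input median was -0.05.

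Box C/D snoRNAs, most but not all of which guide ribose methylation, had 9 of 29 tested members higher and 2 lower, with a median of 0.41 (4 higher and 1 lower without clone 75 replicate 2). U8 (Snord118) was raised from a mean of 365 to 703 CPM. The share of all counts in snoRNAs was 0.268% and 0.289% in clone 65 and 0.268% and 0.293% in clone 75. With ribosomal rows other than CT010467.1 and the mitochondrial rRNAs left out of the total, it was 0.372% and 0.383% against 0.442% and 0.451%.

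Histone genes, nearly all of them of the replication-dependent kind whose mRNAs lack poly(A) tails, had 9 of 55 tested members lower and 0 higher, with a median of -0.21. The list also holds H1f0, a linker histone gene that is not replication-dependent. One of the genes called was Hist1h3e, an H3 gene, at a mean of 152 CPM in clone 65 and 102 CPM in clone 75. In TET2 CLIP all 38 tested histone genes lay below 0, with a median of -1.27 and 11 called. DESeq2 called 1 of the 55 in input, and edgeR called 3 to 5 when any 1 library was left out. Nuclear tRNA genes, whose copies share reads, were mixed in input with 12 of 54 lower and 7 higher (6 lower without clone 75 replicate 2, and 2 to 4 higher without any 1 library), and all 32 tested in TET2 CLIP lay below 0 with a median of -1.25. Their share of input counts was 0.253% and 0.264% in clone 65 and 0.158% and 0.181% in clone 75.

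The smallest p of all belonged to Mid1, a microtubule-associated ubiquitin ligase gene at the end of the X chromosome (169685199 to 169990798). Mid1 was at 131 and 126 CPM in clone 65 and at 457 and 413 CPM in clone 75, a log2 difference of 1.75 ± 0.09 (SE; edgeR adjusted p = 3.75e-25), and in TET2 CLIP at 136 and 137 CPM against 414 and 360 CPM. Its copy on the Y chromosome, Mid1-ps1, differed by 1.62 in input but by 0.28 in TET2 CLIP (edgeR adjusted p = 0.015 for the difference between them), and reads of the pair may be shared. Other genes named by their small p were Enam, which encodes an enamel protein (138 and 142 CPM against 357 and 446 CPM), Nos1, which encodes a nitric oxide synthase (196 and 165 CPM against 440 and 425 CPM) and the complement gene C2 (73.2 and 67.6 CPM against 192 and 185 CPM). Gata3 was at 203 and 152 CPM against 431 and 453 CPM. Enam, Nos1, C2 and Gata3 had too few counts for the test within TET2 CLIP.

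Across all called features the clone difference was set beside that in TET2 CLIP. For that assay a 2-fold change was recovered for 5.95% of features simulated with 1 common dispersion. Of 651 features lower in input 349 were tested there, and 261 (74.8%) had the same sign, 17 were called lower and 0 higher. Of 1057 higher in input 528 were tested, and 317 (60.0%) had the same sign, 28 were called higher and 37 lower. Over all features tested in both, 49.7% lay above 0 in TET2 CLIP, and 0.903% of those tested there were called higher and 3.57% lower. Groups of ribosomal proteins (1 of 83 called higher, median 0.02) and 21 G2 and M phase genes (median -0.05) were close to the bulk of features in input.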

How the data were processed

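Build mm10 and the tools STAR (2.5.3a), Bowtie2 (2.2.6), cutadapt and UMI-tools are named in the submitters' processing notes. What each tool did, how reads were counted, with which annotation and whether by strand is not given in the sources used here. The authors deposited unnormalised counts, as whole numbers per library, for 53900 features (53465 Ensembl genes and 435 tRNA genes), with replicates kept apart. Replicates were biological per the series' design text, and p-values measure the spread between 2 libraries per clone. Replicate inputs differed by more than counting noise (chi-square per degree of freedom 2.26 in clone 65 and 1.68 in clone 75). By that measure they differed by less than inputs of different clones (6.48 to 11.6). By correlation of log2 CPM this held for clone 65 (0.983 between its inputs) but not for clone 75 (0.939). Clone 75 replicate 2 correlated at 0.947 and 0.954 with the clone 65 inputs, and clone 75 replicate 1 at 0.919 and 0.927.

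Counts were tested with edgeR 4.0.16 (TMM, filterByExpr, robust quasi-likelihood F-test, Benjamini-Hochberg, threshold 0.05) over the 4 inputs, over the 4 TET2 CLIP libraries and, for the difference of contrasts, over all 8. The filter admits a feature scarce in 1 clone only where the other is high. Log2 differences are clone 75 minus clone 65, with an SE from the fit. Tested on simulated input counts of 14460 features, the fit called 64.1% of changes that were 2-fold and 93.8% of those that were 4-fold. The simulation gave every feature of an assay 1 common dispersion (a coefficient of variation of 5.07% in input). Real features vary in spread, so these shares are not the power in the real libraries. The 45 gene lists were described by counts and medians and not tested. Shares of counts were compared by exact permutation. The RefSeq table of GRCm38.p6 gave positions and gene types (38180 features matched), and promoter and microRNA sequences are those of RefSeq.

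Named genes were, per direction, the 15 called features with the smallest p whose libraries did not overlap, 3 with provisional names, up to 4 members per list, Tet2 and the 5 most counted, with called members of lists and of the chromosome 2 stretch added after values were seen. Members and lists were chosen with earlier results of these data known. The input fit was repeated with the DESeq2 1.42.0 test, with its size factors or library size alone as scale, without a count filter and with a stricter one, with a replicate block, over 8 libraries, without ribosomal rows and without each library in turn. The RIP and small RNA tables were not analysed here, and a few genes are not reported here, although list counts and medians include them.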

Additional observations from a re-analysis of the deposited data

Results flagged for a closer look

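For 27 named features the difference between clones was itself different in TET2 CLIP and in input, by the interaction test of edgeR over 8 libraries (adjusted p under 0.05; 263 of 10334 features passed, 2.54%). Values are log2, the clone difference in TET2 CLIP minus that in input. Among the named features with specialised or provisional identities, it was lower in TET2 CLIP for Ermap (-3.34), Gm38077 (-2.27), Nos1 (-2.17) and Mid1-ps1 (-1.36). Rows that collect ribosomal reads gave Gm42418 (-1.26), CT010467.1 (-1.24) and Gm15564 (-1.39). Small structured RNAs and snoRNAs gave Rnu5g (-2.66), Rny1 (-1.93), Rnu12 (-1.41), Rmrp (-1.22), Rnu1b1 (-1.10), Snord118 (-1.55) and Snord49a (-1.37). For microRNA loci the values were Mir34a (-2.35) and Mir5119 (-2.34). For mitochondrial RNAs they were mt-Tw (-2.30), mt-Tl1 (-1.28), mt-Co1 (-1.16) and mt-Nd4l (-1.03). Histone genes included Hist1h2bj (-1.19) and Hist1h4k (-1.12). Other protein-coding genes were P4ha1 (-2.54), Col4a2 (-2.17), Hsf1 (-1.99) and Mcm3 (-1.65). Neat1, a nuclear long noncoding RNA, was the single one with a positive value (0.92); it differed by -0.59 in input and by 0.33 in TET2 CLIP.

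Ermap and Nos1 were called higher in clone 75 input by 1.45 and 1.27 and were too scarce for the separate test in TET2 CLIP, so their interaction rests on few CLIP counts. Of the 24 with a test within TET2 CLIP, 20 had opposite signs in the assays. Of these, 6 were called higher in input and lower in TET2 CLIP, namely Mir5119, Rnu5g, Rny1, Rnu12, Col4a2 and Hsf1.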

How the results depend on the processing

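In input the counts of higher and lower features were 1057 and 651. They were 473 and 3302 with library size alone, 667 and 743 without a count filter, 358 and 108 with DESeq2, 517 and 196 in the fit over 8 libraries, and 453 to 899 and 222 to 555 when 1 library was left out. In TET2 CLIP the counts were 38 and 150. They were 78 and 60 with library size alone, 10 and 84 with DESeq2, and 14 to 79 and 80 to 234 when 1 library was left out. DESeq2 size factors, the stricter filter and leaving out ribosomal rows stayed within 1.5 times in input. The cause of these shifts was not tested.

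The labels of both clones share replicate numbers. Within each assay, deviations of same-numbered libraries correlated at -0.02 in input and -0.04 in TET2 CLIP. These values gave no sign of pairing between the clones, but they cannot exclude a weak pairing. Whether input and TET2 CLIP libraries of the same number are paired was not tested. With the replicate block the counts were 1043 and 625 in input and 87 and 229 in TET2 CLIP.

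With library size alone the direction turned for Sesn2 (-0.010), Hspa8 (-0.027), Lama5 (-0.062) and n-R5-8s1 (-0.053), and without clone 75 replicate 2 for Pmaip1, whose values ran from -1.28 to 1.73 when 1 library was left out. These turned values did not pass the test. Of named or listed calls, DESeq2 lost 137 of the 254 for which it gave an adjusted p, and leaving out clone 75 replicate 2 lost 130 of 270. The input of clone 75 replicate 1, at 913002 counts, limits what can be seen in scarce features: 3 counts were 3.98 CPM there.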

Other observations

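The kinase gene Sgk1 and the fibrinogen gene Fgg were lower in clone 75. Sgk1 was at 137 and 160 CPM in clone 65 and at 70.2 and 87.5 CPM in clone 75, a log2 difference of -0.86 in input and -1.57 in TET2 CLIP (edgeR adjusted p = 0.034). Fgg was at 43.7 and 35.5 CPM against 10.6 and 11.4 CPM. Matrix genes were mixed, with 5 of 23 higher and 3 lower: the laminin-binding gene Nid1 differed by -0.55 and the fibronectin gene Fn1 by -0.46, while Col4a1 (1.25), Col4a2 (0.88) and the collagen chaperone gene Serpinh1 (0.64) were higher.

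Chaperone genes had 5 of 17 called higher and 0 lower, with a median of 0.13, a count that was 0 higher and 3 lower with library size alone. The endoplasmic reticulum chaperones Hspa5 (0.57), Hsp90b1 (0.38) and Calr (0.35) were among those called, and without clone 75 replicate 2 the count was 2 with a median of -0.09. Of 17 tested TET and DNA methylation genes, Dnmt1 (0.36) and Dnmt3l (1.03) were higher and Ogt, whose protein binds TET enzymes, was lower (-0.45). The Ogt call was kept under 12 of 12 alternatives, that of Dnmt1 under 6 of 12. Dnmt3l, with means of 5.52 CPM in clone 65 and 11.9 CPM in clone 75, kept its call under 3 of 9. Of 11 RNA cytosine methylation genes Nsun4 was called lower (-0.71) and 0 higher.

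Counts by edgeR in other lists are to be read against 7.07% higher and 4.36% lower over all features. S phase genes had 3 of 21 higher and splicing regulators 1 of 35 higher and 5 lower. Box H/ACA snoRNAs had 4 of 19 higher, and 0 or 1 when any 1 library was left out. Extraembryonic endoderm markers had 3 of 10 higher, and of 4 tested trophoblast markers Gata3 (1.34) and Tfap2a (1.10) were higher. STAT3 targets had 1 of 11 higher and 3 lower, m6A genes 2 of 18 lower, interferon genes 2 of 10 lower and immediate early genes 2 of 10 higher. Nuclear long noncoding RNAs had 2 of 15 higher and 4 lower. Translation factors with 5'TOP mRNAs had 1 of 22 higher and 2 lower, and reference genes 1 of 13 higher and 2 lower.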
